A study of Mus musculus with 2 samples.

Results

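The insulin-like growth factor (IGF) genes were followed in prostaspheres that expressed or lacked Sox9. They are 9 genes of the 27554 gene names on the array: the ligands Igf1 and Igf2, the receptor Igf1r, and the binding proteins Igfbp2, Igfbp3, Igfbp4, Igfbp5, Igfbp6 and Igfbp7. The rule that picks them uses gene names and no measured value, and every probe annotated with one of these names was read. There were 20 such probes, printed as 38 spots on each array, and 17 of them were bright enough to test.

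IGF1 and IGF2 are secreted peptides that activate the IGF1 receptor, a tyrosine kinase that signals through adaptor proteins to PI3-kinase, Akt and mTOR and that keeps Foxo transcription factors out of the nucleus. IGF binding proteins hold the ligands outside the cell and can both store them and keep them from the receptor, and proteases cut the binding proteins to set the ligands free. In the developing prostate, mesenchyme around the epithelium is a known source of IGF ligands and of several binding proteins, whereas the receptor is made by both compartments.

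Prostaspheres, spheres of prostate epithelial cells grown from single cells in Matrigel, gave 4 RNAs on 2 two-color Agilent arrays. In the genotype comparison, wild-type cells given tamoxifen (TAM) were labeled with Cy5 and ER-Sox9flox/flox cells given TAM with Cy3. In the treatment comparison, Cy5 marked ER-Sox9flox/flox cells given vehicle and Cy3 the same cells given TAM. All cells are labeled as C57/Bl6J, came from the urogenital sinus of embryos at 16 days post conception, and were grown with dihydrotestosterone for 6 days before 6 further days with 5 µM TAM or vehicle. The floxed cells carry ERCre, a Cre recombinase that TAM activates, from the Rosa26 locus, which is used in nearly all cell types, so deletion is not limited to epithelium. The labels do not say whether the wild-type cells carry ERCre, and they call both RNAs of the treatment comparison Sox9 null, so there the treatment alone tells them apart. The methods of the study describe the prostasphere assay with adult tissue, unlike the labels. Neither source says how many animals or cultures an RNA holds.

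Log2 ratios are Sox9-expressing over Sox9-deleted RNA after background correction and loess normalization, so a positive value is higher with Sox9. Brightness is the normalized signal of one RNA in arbitrary units, to which a constant of 50 was added, so that changes of dim probes are understated. The brightness of different probes is not compared. Each comparison is 1 array and 0 arrays have swapped dyes, so Sox9 and dye cannot be told apart on either, nor Sox9 and mouse line on the first, nor Sox9 and TAM on the second. On the brightest Sox9 probe the log2 ratio was 2.69 in the genotype and 2.37 in the treatment comparison (limma adjusted p = 0.0591), and a second probe was higher as well, at 1.18 and 1.27. The most distal probe was lower with Sox9, at -1.0 and -1.22, and had only a background signal in wild-type RNA. The part of Sox9 that is deleted is not given in the sources used here, so which probes check the deletion is not known.

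The letters that the array read are shown for 1 ligand and 3 binding proteins, chosen because the brightest probe of each of these 4 genes lies in coding sequence. The first is from Igf1 (mm9 chr10:87376418-87376477), the next from Igfbp2 (chr1:72898677-72898736), then Igfbp3 on the reverse strand (chr11:7108469-7109478, where the 60 bases span an intron) and Igfbp4 (chr11:98909591-98909650). The Igf1 probe lies in the part of the message that codes for the mature ligand.
Igf1: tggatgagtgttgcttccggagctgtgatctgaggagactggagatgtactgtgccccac
Igfbp2: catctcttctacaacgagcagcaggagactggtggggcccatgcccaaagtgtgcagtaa
Igfbp3: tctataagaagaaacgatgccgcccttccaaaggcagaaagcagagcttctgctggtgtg
Igfbp4: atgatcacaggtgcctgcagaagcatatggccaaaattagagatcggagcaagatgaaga

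Of the 9 IGF genes, limma called 0 after adjustment, against 0.0133% of the 15063 genes tested. At an unadjusted p under 0.05 it called 0 of the 9, against 19.5% of all genes, and the test that the methods name called 0 at that level, against 8.78%. At least 2-fold higher with Sox9 on both arrays were 0 of the 9, where the share of all genes was 0.378%, and at least 2-fold lower on both were 0 (0.159%). At any size, with values rounded to 2 decimals, 7 of the 9 genes were lower with Sox9 in the genotype and higher in the treatment comparison. This order was found in 18.4% of all tested genes, counted without rounding. Without rounding Igfbp2, at -0.0002 in the genotype comparison, would count as well. Igf1r was positive on both arrays and Igfbp2 was even on the first. By at least 1.2-fold, a size chosen after the values were seen, 6 of the 9 were lower with Sox9 in the genotype comparison (12.1% of all genes) and 1 was higher (10.1%). In the treatment comparison 6 of the 9 were higher with Sox9 (17.1%) and 0 were lower (12.1%). Igf1, Igfbp3, Igfbp4, Igfbp5 and Igfbp6, 5 of the 9, were both lower in the first and higher in the second, as were 2.06% of all genes, and 0 went the other way (0.146%). The median log2 ratio of the 9 was -0.44 in the genotype and 0.35 in the treatment comparison, where the medians of all tested genes were -0.01 and 0.01.

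**Figure D1:**
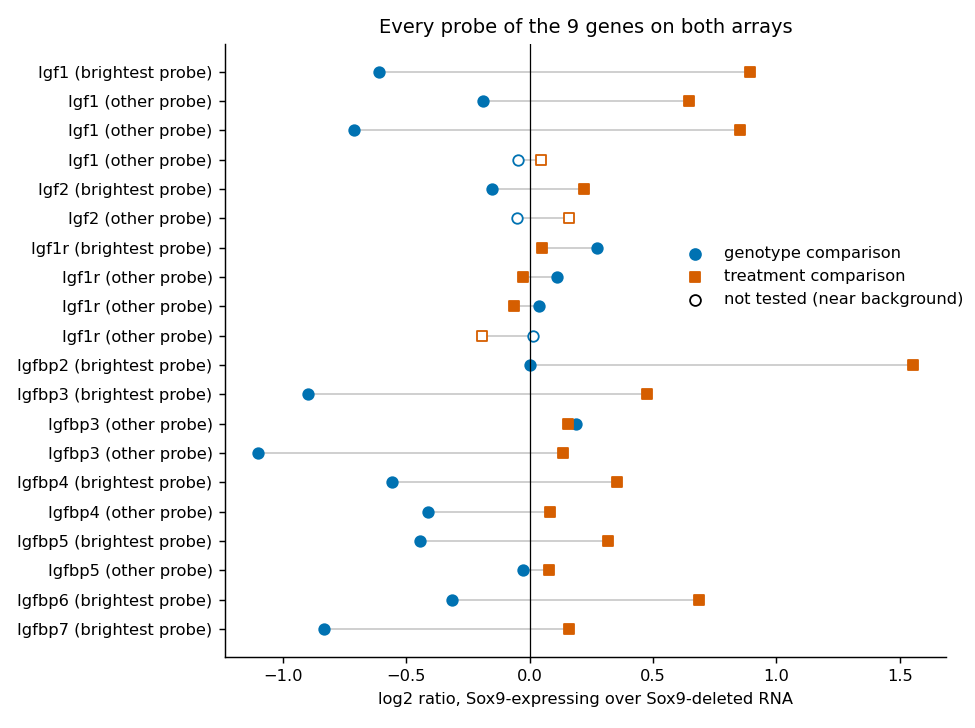
Log2 ratio (horizontal axis, Sox9-expressing over Sox9-deleted RNA) of each of the 20 probes in the genotype comparison (blue circles) and the treatment comparison (orange squares), 1 array each. Hollow marks are the 3 probes that were not tested. Of the 17 tested probes, with values rounded to 2 decimals, 12 lie left of 0 in the genotype comparison and right of 0 in the treatment comparison. Among all tested genes, each read from 1 probe and counted without rounding, 18.4% did so.

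The ligand Igf1 had a brightness of 235 in wild-type cells with TAM and 359 in the floxed cells with TAM on the same array. On the other array it was 654 in floxed cells with vehicle and 352 in floxed cells with TAM. Both TAM-treated floxed RNAs were thus nearly equal, while the wild-type RNA was lower and the vehicle-treated RNA higher than either. The log2 ratio was -0.61 in the genotype and 0.89 in the treatment comparison, a 1.53-fold difference in one direction and a 1.86-fold difference in the other. The mean of 0.14 ± 1.06 (SD, n = 2 arrays, limma adjusted p = 0.873) was smaller than the spread between arrays.

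Igf1 had 3 other probes. The one printed as replicate spots gave -0.71 ± 0.05 (SD over 9 spots of 1 array) in the genotype and 0.85 ± 0.05 (SD over 8 spots) in the treatment comparison. Its spots ranged from -0.80 to -0.63 on the first array and from 0.79 to 0.93 on the second, so no spot overlapped between the arrays. The spots on each array share 1 RNA pair and 1 hybridization, so they measure the array and not the spread between cultures. How often the spots of other replicated probes were also apart was not counted. Another Igf1 probe, of lower brightness, gave -0.19 and 0.64. The fourth, which reads a separate cDNA named AK050118, was not well above background in any of the RNAs.

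Igf2, the fetal ligand, was close to background. Its brightest probe, averaged over 10 spots, had a brightness of 102 in wild-type cells, where it was not well above background, and of 113, 135 and 116 in floxed cells with TAM on the first array, with vehicle, and with TAM on the second array. The log2 ratio was -0.15 ± 0.07 in the genotype and 0.22 ± 0.09 in the treatment comparison, each with its SD over 10 spots. The measured Igf2 signal was thus 1.11-fold higher in floxed than in wild-type cells with TAM. As the wild-type signal was not well above background, the size of this difference is uncertain. The spots of the arrays did not overlap, with a highest of -0.04 on the first and a lowest of 0.12 on the second. As for Igf1, the share of other replicated probes without overlap was not counted, and spots do not measure the spread between cultures. The mean of 0.03 ± 0.26 (SD, n = 2 arrays) had a limma adjusted p of 0.906. A second Igf2 probe was not tested, as it was well above background in vehicle-treated floxed RNA but in no other.

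**Figure D2:**
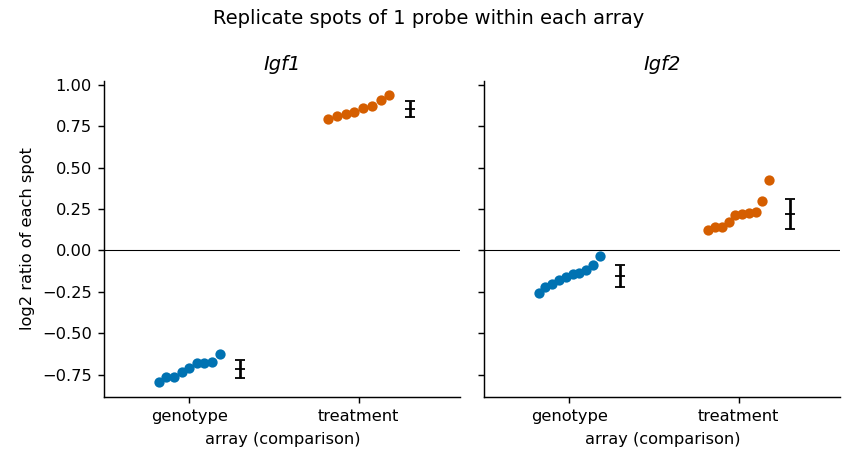
Log2 ratio of each replicate spot (points) of 1 Igf1 probe and 1 Igf2 probe within the genotype and the treatment array, with the mean and SD over spots at the right of each set. For Igf1 the spots lie between -0.80 and -0.63 on one array and between 0.79 and 0.93 on the other. For Igf2 they lie nearer to 0, on opposite sides of it.

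H19, the imprinted non-coding RNA beside Igf2 that is made from the maternal chromosome, was taken up after its values were seen. It had a brightness of 113 in wild-type cells, not well above background, 202 in floxed cells with TAM on that array, 476 in floxed cells with vehicle and 195 in floxed cells with TAM on the second array. Its measured signal was 1.79-fold lower in wild-type cells in the genotype comparison, a size made uncertain by the wild-type signal near background. Its log2 ratio in the treatment comparison was 1.29.

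The receptor Igf1r differed from the other genes in its order over the RNAs. On the brightest of its 4 probes the brightness was 492 in wild-type cells and 407 in floxed cells with TAM on the same array, and 366 with vehicle and 354 with TAM on the other. The log2 ratio was 0.27 in the genotype and 0.05 in the treatment comparison, and the mean was 0.16 ± 0.16 (SD, n = 2, with a limma adjusted p of 0.437). The other tested probes gave 0.11 and -0.03, and 0.04 and -0.07, and the fourth, of a separate cDNA named AK044980, was not tested. In the main analysis the probes thus placed the receptor within 1.21-fold of no change on both arrays, and they did not share a sign in the treatment comparison. With median centring in place of loess the brightest gave 0.50 in the treatment comparison, where the median of all tested genes was 0.42. With both arrays scaled to 1 spread it gave 0.37 in the genotype comparison. The study lists Igf1r in a theme it sorted on these same arrays, so its place there is not independent evidence of a direction.

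Igfbp2 had the largest single difference of the 9 genes. Its brightness was 763 in wild-type cells and 764 in floxed cells with TAM on the same array, then 2318 in floxed cells with vehicle and 789 in floxed cells with TAM. The vehicle-treated RNA stood alone, and the other 3 RNAs were within 1.03-fold of each other. The log2 ratio was -0.00 in the genotype comparison but 1.56, or 2.94-fold, in the treatment comparison. The mean was 0.78 ± 1.1 (SD, n = 2, limma adjusted p = 0.40), smaller than the spread between arrays. Igfbp2 has 1 probe on the array.

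Over the log2 ratios of both arrays, the genes nearest to Igfbp2 among 15062 others were Cxcl12 at a distance of 0.0407, Lrrn3 at 0.0543, Cyp2f2 at 0.105, Aldh1a1 at 0.126 and 1190002F15Rik at 0.16. Likeness was measured as the Euclidean distance over those 2 values. Cxcl12, a chemokine, had log2 ratios of 0.04 and 1.57, and Aldh1a1, which makes retinoic acid, had 0.10 and 1.49.

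Igfbp3, the main carrier of IGFs in blood, had a brightness of 238 in wild-type cells and 444 in floxed cells with TAM, and of 537 with vehicle and 386 with TAM on the other array. The wild-type RNA was the lowest of the 4 and the vehicle-treated RNA the highest. The log2 ratio was -0.90 in the genotype comparison, a 1.87-fold difference, against 0.47 in the treatment comparison (mean -0.21 ± 0.97, SD, n = 2, limma adjusted p = 0.785). On the 3′ side another probe gave -1.1 and 0.14. The dim remaining probe, of a separate cDNA named AK045003, gave 0.19 and 0.16, so the probes disagreed in sign in the genotype comparison.

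Igfbp4, which mostly holds IGFs away from the receptor until a protease cuts it, had a brightness of 140 and 207 on the first array, and 245 and 192 on the second, in Sox9-expressing and Sox9-deleted RNA in that order. Its log2 ratios were -0.56 and 0.35 (limma adjusted p of the mean = 0.852), and a second probe gave -0.41 and 0.08. For both probes the wild-type RNA was the lowest of the 4.

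Igfbp5, which binds to matrix and is the neighbor of Igfbp2 on chromosome 1, had brightness values of 649 and 883 on the first array and 1048 and 841 on the second. Its log2 ratios were -0.44 and 0.32 (limma adjusted p of the mean = 0.894). A dimmer second probe gave -0.03 and 0.08, so the size of the difference depended on the probe. Igfbp2 and Igfbp5 differed in the genotype comparison, where Igfbp2 was even.

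Igfbp6, which prefers IGF2 as its ligand, had a brightness of 266 in wild-type cells and 332 in floxed cells with TAM, and of 580 with vehicle and 361 with TAM on the other array. The vehicle-treated RNA was set apart from the other 3, with a log2 ratio of 0.69 against -0.32 in the genotype comparison (limma adjusted p of the mean = 0.746). Igfbp7, a secreted protein that binds IGFs weakly, showed the reverse arrangement. Its brightness was 8451 in wild-type cells and 15070 in floxed cells with TAM, and 15090 with vehicle and 13520 with TAM on the other array. The wild-type RNA stood alone, with log2 ratios of -0.83 in the genotype and 0.16 in the treatment comparison (limma adjusted p of the mean = 0.552). With median centring in place of loess these became -0.68 and 0.93, where the median of all tested genes in the treatment comparison was 0.42, so that arrangement depended on the centring. Igfbp6 and Igfbp7 have 1 probe each.

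**Figure D3:**
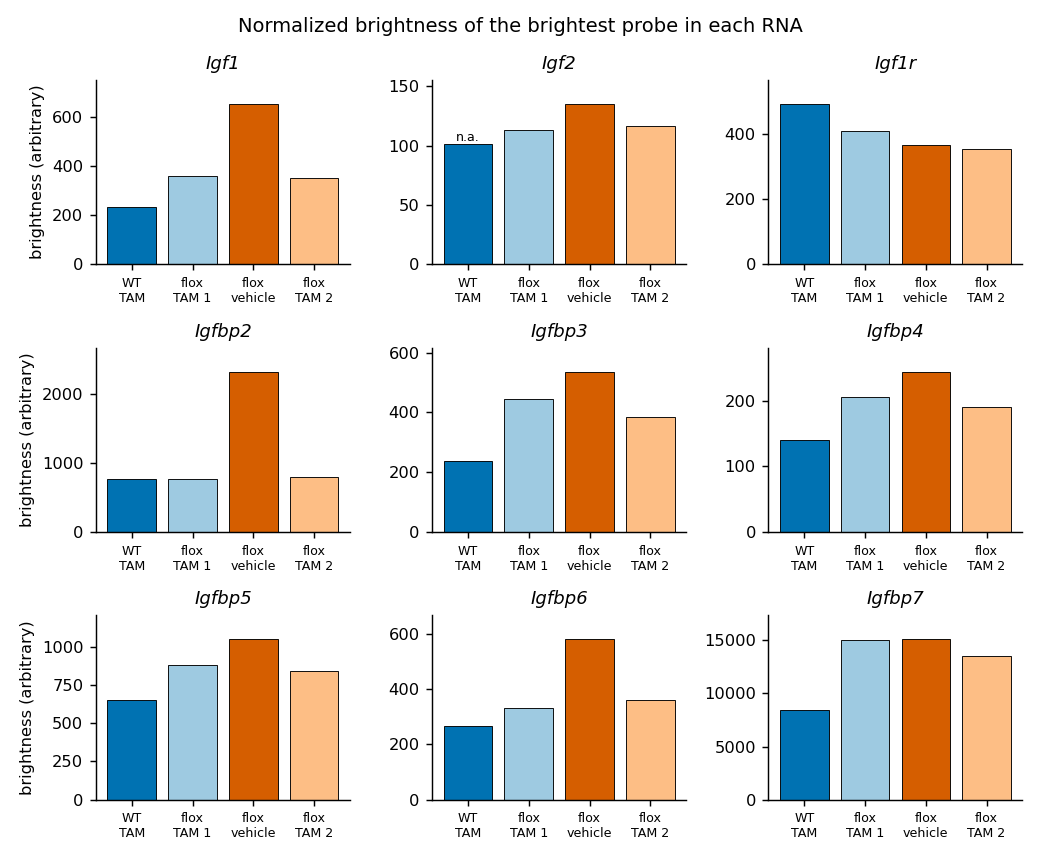
Normalized brightness (vertical axis, arbitrary units, from 0) of the brightest probe of each gene in wild-type cells with TAM, floxed cells with TAM on the same array (flox TAM 1), floxed cells with vehicle, and floxed cells with TAM on the other array (flox TAM 2), 1 RNA per bar. The mark n.a. stands for not well above background. In 8 of the 9 genes the wild-type bar is the lowest and the vehicle bar the highest, and the exception is Igf1r.

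Set side by side over both arrays, 8 of the 9 genes had their lowest brightness in wild-type cells with TAM and their highest in floxed cells with vehicle, an order found in 11.5% of all tested genes. For Igfbp2 and Igfbp7 this order rests in part on RNAs that were nearly equal. The Sox9-deleted RNAs of the arrays differed by 0.11 on the log2 scale in the median over the 9 genes (at most 0.20), against 0.07 over all tested genes. The Sox9-expressing RNAs differed by 0.84 in the median, against 0.14 over all tested genes. Vehicle-treated floxed cells were 3.04-fold above wild-type cells for Igfbp2, 2.78-fold for Igf1, 2.26-fold for Igfbp3 and 2.18-fold for Igfbp6. These values compare RNAs of different arrays in the same dye, and with 1 RNA of each kind they have no test. Wild-type and vehicle-treated RNAs both express Sox9 but differ in genotype, in TAM and in array, which cannot be told apart here.

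Fibroblast and skeletal muscle markers mostly had the same order over the 4 RNAs, which 11.5% of all tested genes had. The few tested endothelial and immune markers did not show it. All 10 fibroblast markers were well above background in every RNA. Of the 10, 9 were lower in the genotype and higher in the treatment comparison (18.4% of all tested genes). Each of these 9 differed by at least 1.2-fold on both arrays (2.06%). The summed brightness of the 10 was 32320 in wild-type cells, 56880 and 50130 in floxed cells with TAM, and 82090 in floxed cells with vehicle. Dcn was the exception, at -0.77 and -0.14, and Col3a1 moved most, at -1.63 and 1.13. Of 12 skeletal muscle markers 9 were tested. All 9 were lower in the genotype and higher in the treatment comparison (18.4% of all tested genes). Their summed brightness over the 12 was 2120 in wild-type cells, 4110 and 3375 in floxed cells with TAM, and 10530 in floxed cells with vehicle. Of the 12, 4 were well above background in wild-type cells, 11 and 9 in floxed cells with TAM and 11 in those with vehicle. Myf5, which defines early muscle cells, was not well above background in any RNA, whereas Myog was in 3 of the 4. Of 6 smooth muscle markers, 4 were lower in the genotype and higher in the treatment comparison (18.4% of all tested genes). Cnn1 (0.29 and 1.54) and Smtn (0.68 and 0.63) were higher on both. The 6 summed to 14460 in wild-type cells, 20150 and 22790 in floxed cells with TAM, and 33080 in floxed cells with vehicle. Each of these sums compares the same probes between RNAs. A sum weighs the brightest probes most and includes the added constant and any signals at background, so it does not measure an amount of a cell type. Among endothelial and immune markers, Pecam1, Tek, Tie1 and Ptprc were not well above background in any RNA, whereas Cdh5, Kdr, Csf1r, Cd68 and Cd14 were in all 4. Cd68 was between 319 and 545 and Cd14 between 1491 and 3071. Of the endothelial and immune lists, 2 of 5 and 4 of 5 were tested, and 0 of these were lower in the genotype and higher in the treatment comparison. So few genes cannot be set apart from the 18.4% of all tested genes. All 8 epithelial markers were well above background in the 4 RNAs, and 5 were higher with Sox9 on both arrays, Krt5 and Krt14 among them, while Cdh1 (-0.31 and -0.32) and Krt18 (-0.28 and -1.01) were lower on both. The part of these other cell types in the IGF values was not tested, and in such mixed RNA fewer cells of a type cannot be told apart from less RNA per cell.

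**Figure D4:**
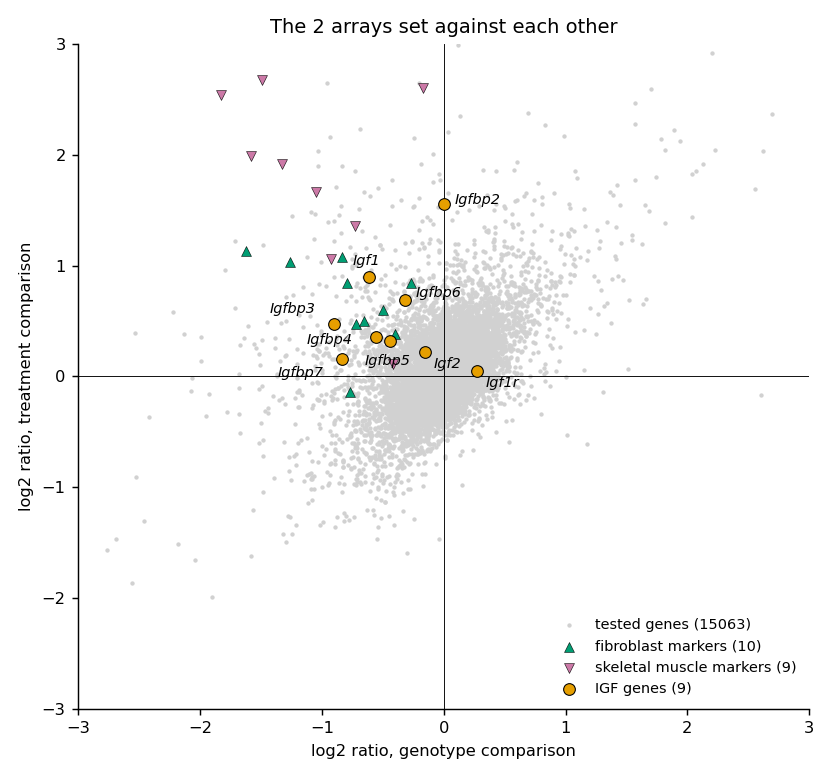
Log2 ratios of the genotype comparison (horizontal axis) against those of the treatment comparison (vertical axis) for all tested genes (gray, with 8 of 15063 outside the axes), the 9 IGF genes (orange), 10 fibroblast markers (green) and 9 tested skeletal muscle markers (pink). Except for Igf1r and Igfbp2, the IGF genes lie in the upper left part, as do 9 of the fibroblast and all 9 of the muscle markers.

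The rest of the pathway was described by 70 further genes in 7 lists, of which 69 were found on the array and 61 tested. After adjustment limma called 0 of the 61. At an unadjusted p under 0.05 it called 16, of which 12 had higher and 4 lower means with Sox9, or 26.2% of the 61 against 19.5% of all genes. On both arrays 26 of the 61 were higher and 16 lower, where 33.8% of all tested genes were higher on both and 33.8% lower on both, and 13 were lower in the genotype and higher in the treatment comparison, an order that 18.4% of all tested genes showed at any size. The median of the means was 0.03, against 0.00 over all tested genes.

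Among other ligands, receptors and carriers, 3 of 8 were tested. The insulin genes Ins1 and Ins2, Igfbp1 and Igfbpl1 were not bright enough to test. Igf2r, which clears IGF2 from the surface, was bright and nearly equal in all RNAs, between 3087 and 3221, with log2 ratios of 0.06 and 0.01. Igfals, which joins IGFs and Igfbp3 in a blood complex, was the lowest of the list, at -0.45 and 0.14, and stood at background in the wild-type RNA.

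The list of binding protein proteases and their inhibitors held the largest values of the pathway. Adamts1, a secreted protease of the matrix, had a brightness of 2185 in wild-type cells and 1068 in floxed cells with TAM, and of 3349 with vehicle and 1169 with TAM on the other array. Both arrays gave higher values with Sox9, at log2 ratios of 1.03 and 1.52 (mean 1.28 ± 0.34, SD, n = 2, limma adjusted p = 0.105). On this probe, the brightest of 2, Adamts1 was the 1 pathway gene past 2-fold on both arrays. With all probes of each gene averaged, 0 pathway genes were. Htra1, a serine protease that cuts Igfbp5 and was singled out after its values were seen, was at 1.37 and 0.48 (limma adjusted p = 0.208). Pappa, which cuts Igfbp4 and Igfbp5, was the lowest of the list, at -0.65 and -0.10 (limma adjusted p = 0.336). The list also holds Stc1 and Stc2, which are inhibitors and not proteases. Of the 6 tested, 4 were higher on both arrays (33.8% of all genes) and 2 lower on both (33.8%). The higher included Stc2, at 0.27 and 0.18, and Adam12, which was near 0, at 0.08 and 0.00. The lower included Stc1, at -0.07 and -0.03. Of the higher, 3 had a limma unadjusted p under 0.05, namely Adamts1, Htra1 and Stc2. They are 50% of the 6 tested, where the share of all tested genes in either direction was 19.5%.

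Signaling genes inside the cell lay closer to 0. Of 18 tested adaptors and genes from PI3-kinase to Akt, 6 were higher and 6 lower on both arrays, near the shares of 33.8% each among all genes. Pik3r1, the regulatory subunit of PI3-kinase, was the highest, at 0.37 and 0.61 (limma adjusted p = 0.164), and Inppl1, a lipid phosphatase, the lowest, at -0.19 and -0.26 (limma adjusted p = 0.269). Grb10, an imprinted adaptor that restrains the receptor, was singled out after its values were seen, since like Igfbp2 it was even in the genotype comparison (-0.01) and higher in the treatment comparison (0.82). Of 12 tested genes of mTOR, Gsk3 and Foxo, 3 were higher and 5 lower on both arrays (33.8% each among all genes), with Rps6kb1 highest (0.23 and 0.24) and Eif4ebp1 lowest (-0.27 and -0.36).

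Genes that Foxo factors activate, which insulin and IGF signaling hold down, were counted at any size. Values were higher with Sox9 on both arrays in 7 of 9 cases, against 33.8% of all genes, and lower on both in 0 (33.8%). The 7 include values near 0, such as Fbxo32 at 0.02 and 0.05 and Bcl6 at 0.04 and 0.11. The median of means of the 9 was 0.16. By limma, 2 of the 9 had an unadjusted p under 0.05, where the share of all genes was 19.5%, and 0 passed adjustment. Sesn1, a stress-response gene, was highest, at 0.49 and 1.1 (limma adjusted p = 0.183), and Cited2 lowest, at 0.17 and -0.25. Among the neighbor and regulators of Igf2, Plagl1, an activator of imprinted genes, was highest (0.23 and 0.35) and Hmga2, a chromatin protein of growing cells, lowest (-0.08 and -0.40). Among the other secreted proteins with an IGFBP domain, Crim1 was highest (0.24 and 0.29) and Ccn2, a growth factor of connective tissue, lowest (-0.17 and -0.36). These highest and lowest genes were picked by a fixed rule, and 0 of them passed limma's adjusted threshold.

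**Figure D5:**
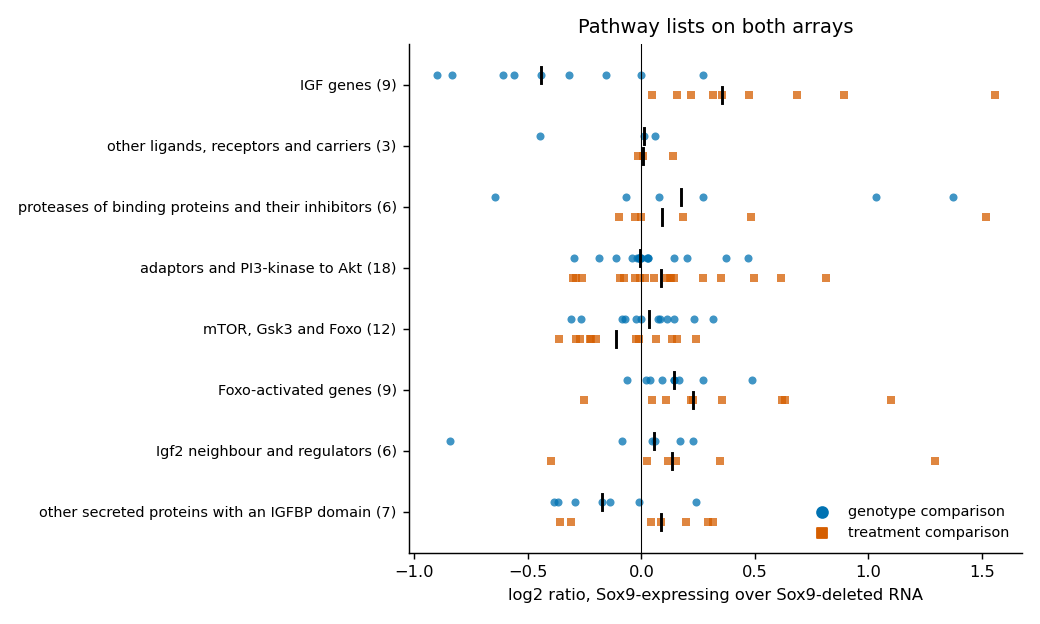
Log2 ratio (horizontal axis) of each tested gene (points) of the 9 IGF genes and of the 7 pathway lists, in the genotype comparison (blue circles) and the treatment comparison (orange squares), with black bars at the medians and the number of genes in brackets. The medians of the IGF genes are at -0.44 and 0.35, and those of the pathway lists lie between -0.17 and 0.23.

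Promoters of the 9 genes were searched for the core letters that Sox factors bind, since most of these genes moved together. RefSeq windows (GRCm38.p6), each of 250 bases before and 50 after a start, numbered 13 for the 9 genes. Written as ACAATG, on either strand, the core was in 2 of the 13 windows, of Igf1 and Igf2. Of the 32851 windows of all genes, 12.6% held it. Written as AACAAT it was in 1 of the 13, a window of Igf2 where it overlaps the first, and in 10.7% of all windows. The Foxo motif GTAAACA was in 0 of the 13, against 3.65% of all windows. The stretches that hold the Sox core are given with the core, or its reverse complement, in capitals. For Igf2 (chr7:142661295-142661354, printed on the reverse strand) the capitals are the reverse complement of the overlapping cores and begin at position -56 from the start. For Igf1 (chr10:87861087-87861116, forward strand) the core begins at base 1 of the transcript.
Igf2: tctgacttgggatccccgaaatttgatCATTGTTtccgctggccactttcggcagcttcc
Igf1: tggatagccgagatagatagccatACAATG
A match of letters is a description and not a binding site, and these arrays do not measure binding.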

How the data were processed

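Each array compared a Sox9-expressing RNA (Cy5) with a Sox9-deleted RNA (Cy3), on 1 slide read in 1 scan. The authors deposited the mean intensity and median local background intensity of each spot, read by Agilent Feature Extraction 10.5.1.1, its processed intensities, and the log10 ratio of Cy5 over Cy3 that the software made from them. A deposited table holds the authors' processed values, which by their values are log2 ratios of Cy5 over Cy3. The labels name limma for the processing, and other steps are not given in the sources used here.

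Background was corrected with normexp (limma 3.58.1, R 4.3.3, offset 50), the 1639 control spots of 45018 were left out, and loess was run within arrays. Outlier spots (126 and 130) were left out and spots averaged, giving 41174 probes. Of these, 22731 exceeded background clearly (the software's mark, in the same dye on each array) and were tested with limma (mean over 2 arrays against 0, two-sided, 1 residual degree of freedom, prior SD 0.119), with Benjamini-Hochberg adjustment over all of them, and 2 passed 0.05 (3990 at an unadjusted p under 0.05). P-values measure only the spread between these arrays. Brightness per RNA was taken after quantile normalization of the average intensities. The brightest probe stood for a gene. The number of arrays limits the precision, and 0 spots were saturated. The code was tested on simulated data.

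The genes and lists were chosen with earlier results of these data known. By rule, the genes named are the members with all their probes, Sox9, the highest and lowest gene of each pathway list, pathway genes past 2-fold on both arrays, and the 5 genes nearest to Igfbp2. Other pathway genes and the single marker genes were named after their values were seen. Alternatives changed the offset, background, centring, scaling, filter, source of values, probe averaging, outliers and test, or left out an array. Of the listed genes, Irs2 was not matched to a name on the array and 8 were matched by an older name. Figures were drawn with matplotlib 3.10.9 from tables made with Python 3.11.15, numpy 2.4.6 and pandas 2.3.3.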

Additional observations from a re-analysis of the deposited data

Results flagged for a closer look

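With values rounded to 2 decimals, 7 of the 9 IGF genes had log2 ratios of opposite sign on the 2 arrays. They were lower with Sox9 in the genotype comparison and higher with Sox9 in the treatment comparison. Of all tested genes, 18.4% showed this order at any size, counted without rounding. For the ligands the values were -0.61 and 0.89 (Igf1) and -0.15 and 0.22 (Igf2). For the binding proteins they were -0.90 and 0.47 (Igfbp3), -0.56 and 0.35 (Igfbp4), -0.44 and 0.32 (Igfbp5), -0.32 and 0.69 (Igfbp6), and -0.83 and 0.16 (Igfbp7). Each comparison is 1 array, so the difference between the comparisons was not tested. The fibroblast markers had medians of -0.74 and 0.72 on the same arrays, and the tested skeletal muscle markers -1.05 and 1.92, and the part of such cells in the IGF values was not tested.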

How the results depend on the processing

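The fit has 1 residual degree of freedom, and a dim probe such as that of Igf2 is limited by its signal over background. Over the alternatives with a test, 8 of the 9 genes stayed above an adjusted p of 0.05. The exception was Igfbp2 with median centring in place of loess, where its mean became 1.08 (limma adjusted p = 0.00626, the lowest of a range to 0.536), 522 probes were called in all and 1 of the 9 genes with them. That setting moved the median of all tested genes of the treatment comparison to 0.42, and the count of probes called was 2 in the main analysis. With it the means of Igfbp3, Igfbp4, Igfbp5 and Igfbp7 turned positive, at 0.043, 0.073, 0.22 and 0.13, the difference between the arrays for Igf1r became 0.19, and 2 pathway genes were at least 2-fold on both arrays. The probes called by limma numbered 0 with a constant of 10 in place of 50, without background subtraction, with both arrays scaled to 1 spread and from the processed signals of the scanner software, and 0 with the methods' t-test. They numbered 21 with no filter on dim probes and 68 on the authors' processed values. Igf2 turned negative in its mean without background subtraction (-0.059), with scaled arrays (-0.024), on the processed signals (-0.51) and on the authors' values (-0.07), and Igf1 with scaled arrays (-0.087). The difference between the arrays for Igf2 became 0.75 without background subtraction, 2.35 on the processed signals and 0.75 on the authors' values. On the processed signals it was -0.38 for Igf1r and 1.86 for Igfbp4. Averaging all probes of a gene left 0 pathway genes at least 2-fold on both arrays. With either array left out, 0 to 1 of the 9 genes and 2 to 3 pathway genes were at least 2-fold on the other, and the values of single arrays stand in the report. The sign pattern of Igf1, Igfbp3, Igfbp4, Igfbp5, Igfbp6 and Igfbp7 held in all 11 settings, and that of Igf2 in the 10 in which it was tested, since it was not tested with the filter for both dyes. These settings include the main one. The filters change which probes are tested and not their values, and keeping outlier spots left these values unchanged. Probe averaging cannot change Igfbp6 or Igfbp7, which have 1 probe each. The cause of the changes between settings was not tested. Each log2 ratio pairs the RNAs of 1 array, and the tests used these ratios over both arrays. No paired test within either comparison was possible, because each comparison is 1 array.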
